A study of Homo sapiens with 3 samples.

Results

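Mucin-type O-glycosylation enzymes, which attach and extend sugar chains on serine and threonine residues of secreted and membrane proteins, were followed in 3 Affymetrix array libraries of GFP-SAS cells, a culture of the human tongue carcinoma line SAS. The 10 genes were GALNT1, GALNT2, GALNT3, GALNT6, GALNT7, GALNT12, C1GALT1, C1GALT1C1, ST3GAL1 and ST6GALNAC2, out of 18239 genes with a probe set of their own. All probe sets that the platform annotation gives to one of these genes alone were taken, which were 29 of 49386. The genes had been picked with earlier results of these data in view, so their differences from the control are a description and are not tested.

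The cells of each library had been given 10 nM of a small interfering RNA for 24 h. Such an siRNA is a double-stranded oligonucleotide that guides the cutting of an mRNA with a matching sequence. A non-targeting siRNA (siNT) was the control in 1 library, and the other 2 received siAkt1-22 or siAkt1-58, siRNAs directed at AKT1, a serine/threonine kinase of the PI3K pathway; the labels call both of these knockdowns of Akt1. The name GFP-SAS is all that the labels give on the reporter, and whether separate cultures were used is not stated. Levels are given as log2 expression values of a probe set, and a difference is a siAkt1 library minus siNT on that scale.

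The label check and the culture were read first. AKT1 read 6.75 with siNT, 3.67 with siAkt1-22 and 3.47 with siAkt1-58 in its brightest probe set. Of 11 epithelial markers, not all of them particular to squamous epithelium, 8 had a probe set of their own. Of these, 7 lay above the filter level of 3.93, the 30th percentile of genes. KRT14, a basal keratin, read 3.66 with siNT and lay below it. Among 19 markers of fibroblasts, endothelium, leukocytes and skeletal muscle, 6 reached that level, and apart from the lysosomal protein CD68 (6.33 with siNT) these 6 read at most 4.84 with siNT. In bulk RNA fewer cells that express a gene and less of its RNA per cell cannot be told apart.

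Mucin-type O-glycosylation starts in the Golgi, where polypeptide GalNAc-transferases, the products of the GALNT genes, link N-acetylgalactosamine (GalNAc) to the protein; this single sugar is the Tn antigen. C1GALT1 then adds galactose to give the core 1 disaccharide, the T antigen, and needs its chaperone C1GALT1C1 (Cosmc) to fold. ST3GAL1 and ST6GALNAC2 cap these short chains with sialic acid. Exposed Tn and T antigens are a known feature of many carcinomas.

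GALNT1, C1GALT1 and ST6GALNAC2 differed most from siNT. GALNT1 was 17.8-fold lower with siAkt1-22 and 1.31-fold higher with siAkt1-58. C1GALT1 was lower in both libraries, 2.89-fold with siAkt1-22 and 1.58-fold with siAkt1-58. ST6GALNAC2 was 3.27-fold and 4.14-fold higher, and was the gene of the 10 that stood at least 2-fold from siNT with both siRNAs. GALNT2 and GALNT7 were lower with siAkt1-22 and higher with siAkt1-58, both by less than 2-fold in their brightest probe sets.

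**Figure D1:**
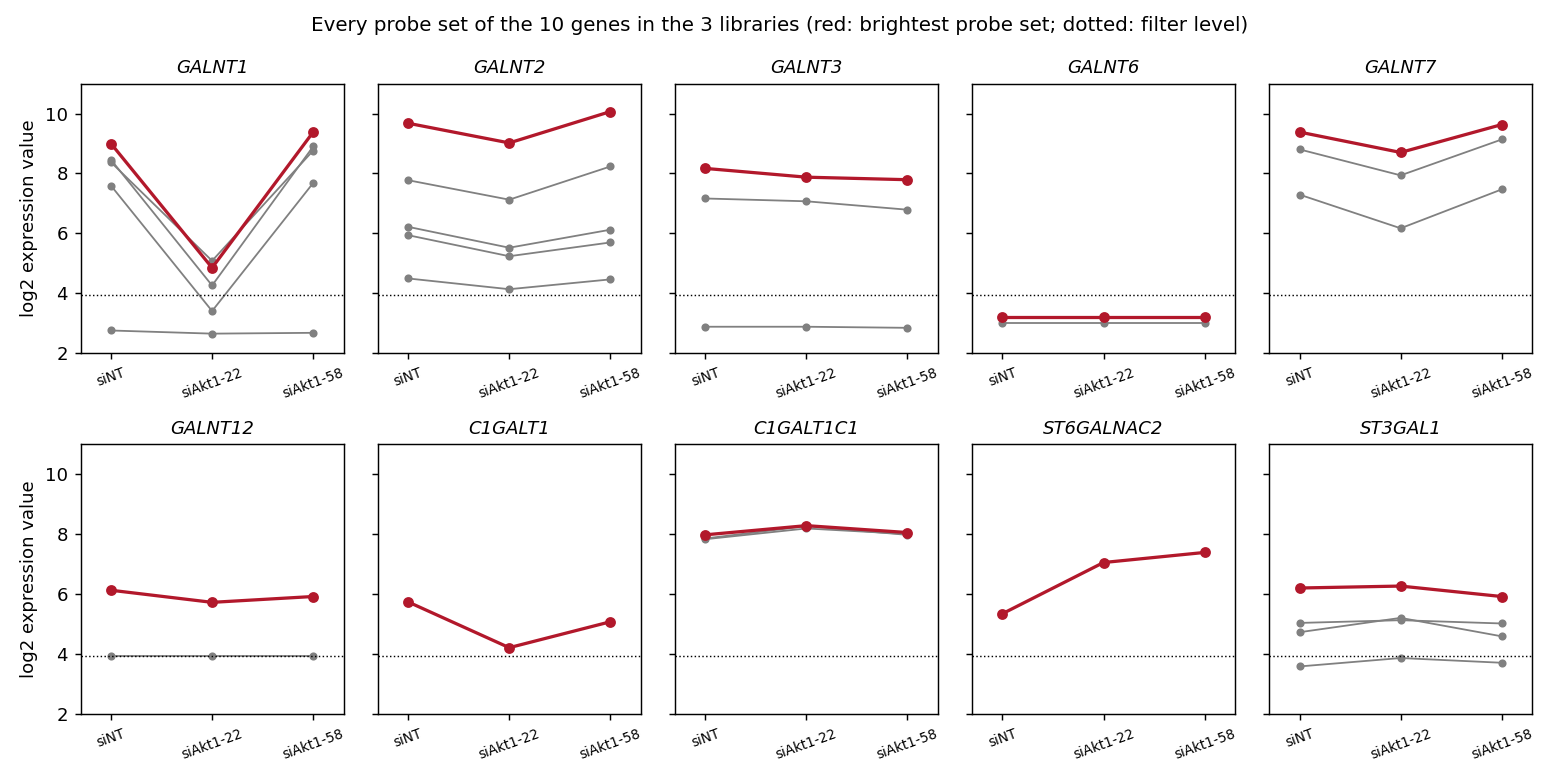
Log2 expression value (y axis) of every probe set of the 10 genes in the siNT, siAkt1-22 and siAkt1-58 libraries (x axis), 1 value per library; lines join the values of a probe set, red marks the brightest one and the dotted line is the filter level of 3.93. In GALNT1, 4 of 5 probe sets dip with siAkt1-22; in ST6GALNAC2 both siAkt1 libraries lie above siNT.

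Among the enzymes that start the chains, GALNT1, a broadly expressed transferase, read 9.00 with siNT, 4.84 with siAkt1-22 and 9.38 with siAkt1-58 in its brightest probe set, 11743292_at. The siAkt1-22 library was the low one and the other libraries lay close together. The differences from siNT were -4.15 and 0.39, and siAkt1-22 stood 23.2-fold below siAkt1-58. The mean over both siAkt1 libraries, -1.88 ± 3.21 (SD, n = 2), describes neither. With siAkt1-22, GALNT1 had the third lowest difference of the 12779 genes at or above the filter level.

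The other GALNT1 probe sets showed the same pattern wherever they gave signal. They read 8.46, 4.25 and 8.90, then 8.37, 5.08 and 8.76, and then 7.59, 3.40 and 7.68 with siNT, siAkt1-22 and siAkt1-58. Over the 4 probe sets above the filter level the differences ran from -4.20 to -3.30 with siAkt1-22 and from 0.09 to 0.44 with siAkt1-58. The last probe set was dim throughout, at 2.75, 2.64 and 2.67. With all 5 averaged, this dim one included, GALNT1 was 9.12-fold lower with siAkt1-22 and 1.19-fold higher with siAkt1-58. One siAkt1-22 value lay below the filter level, where dim signal understates a difference.

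Some control probe sets, among them those of the cell transcript ACTB, also differed in the siAkt1-22 library. The actin control probe sets at the 3′ and 5′ ends of ACTB were lower by -3.21 and -4.04 with siAkt1-22, and the 3′ value exceeded the 5′ value by 1.24 with siNT, 2.07 with siAkt1-22 and 1.17 with siAkt1-58. For GAPDH the same gap was -0.01, -0.01 and -0.04, and its 3′ and 5′ values each differed from siNT by -0.08 with siAkt1-22. For the 24 probe sets that read the poly-A spike-in RNA the median difference was -0.56 with siAkt1-22 and -0.01 with siAkt1-58. For the 9 probe sets of the hybridisation spike-in it was -0.04 and 0.08. The part of these control readings in the GALNT1 values was not tested.

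GALNT2, a transferase that starts O-glycans on many proteins, read 9.68 with siNT, 9.02 with siAkt1-22 and 10.07 with siAkt1-58. Its differences were -0.66 and 0.39, so that siAkt1-22 stood 2.07-fold below siAkt1-58. With its probe sets averaged the differences were -0.61 and 0.10, and the gap of 1.64-fold no longer reached 2-fold. All 5 of its probe sets were lower with siAkt1-22, by -0.70 to -0.36, and they were split with siAkt1-58, from -0.24 to 0.46. The brightest probe set is of a kind (suffix s) whose probes may also match other genes.

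GALNT7, which prefers peptides that already carry GalNAc, read 9.38, 8.70 and 9.63 with siNT, siAkt1-22 and siAkt1-58. Its differences were -0.68 and 0.25, and siAkt1-22 stood 1.91-fold below siAkt1-58. The 3 probe sets ran from -1.13 to -0.68 with siAkt1-22 and from 0.18 to 0.33 with siAkt1-58, so each placed siAkt1-22 lowest and siAkt1-58 highest.

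GALNT3, known for protecting the phosphate hormone FGF23 from cleavage, read 8.17, 7.87 and 7.79, with differences of -0.29 and -0.38. A second probe set gave -0.09 and -0.37, and a dim one read 2.87, 2.87 and 2.84. GALNT12 read 6.12, 5.72 and 5.92, with differences of -0.40 and -0.21. Its dimmer probe set read 3.93 in all 3 libraries, at the filter level.

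GALNT6, a relative of GALNT3, was the gene of the 10 that did not reach the filter level. Its probe sets read 3.21 and 3.01, each with an exactly equal value in all 3 libraries. Such ties arise in 20.7% of all probe sets and say nothing about a change.

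C1GALT1, the core 1 synthase, had a single probe set, 11758562_s_at, which read 5.73 with siNT, 4.21 with siAkt1-22 and 5.07 with siAkt1-58. Both siAkt1 libraries lay below siNT, and siAkt1-22 was the lower one, near the filter level. The differences were -1.53 and -0.66, a mean of -1.10 ± 0.61 (SD, n = 2). Its rank from the bottom was 320 of 12779 with siAkt1-22 and 932 with siAkt1-58. The probe set carries the suffix for possible matches to other genes, and no second probe set was there to check it against.

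C1GALT1C1, the chaperone without which C1GALT1 is lost from the cell, did not follow its client. It read 7.98, 8.28 and 8.05 with siNT, siAkt1-22 and siAkt1-58. Its 3 probe sets lay above siNT with both siRNAs, by 0.31 to 0.41 with siAkt1-22 and by 0.08 to 0.17 with siAkt1-58. The synthase and its chaperone therefore stood on opposite sides of siNT with each siRNA, and this contrast was not tested.

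Among the sialyltransferases, ST6GALNAC2, which adds sialic acid to the GalNAc of the chain, read 5.34 with siNT, 7.05 with siAkt1-22 and 7.39 with siAkt1-58 in its only probe set, 11742883_at. Both siAkt1 libraries were high and lay closer to each other than to siNT. The mean difference was 1.88 ± 0.24 (SD, n = 2). Both values behind it subtract the same siNT reading, and the spread of siNT is unknown with 1 library. By rank from the top it was number 97 of 12779 with siAkt1-22 and number 8 with siAkt1-58.

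ST3GAL1, which caps the galactose of core 1, read 6.20, 6.26 and 5.91 in its brightest probe set, with differences of 0.06 and -0.28. Of its other probe sets, one read 5.03, 5.12 and 5.01 and another 4.72, 5.20 and 4.58. The last lay below the filter level at 3.58, 3.86 and 3.70. Over the 3 above that level the differences ran from 0.06 to 0.48 with siAkt1-22 and from -0.28 to -0.02 with siAkt1-58, all smaller than 2-fold. The brightest probe set is of a kind (suffix x) whose probes may also match other sequences.

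Counted over the 9 genes at or above the filter level, 2 were at least 2-fold lower than siNT with siAkt1-22 (GALNT1 and C1GALT1), against 5.97% of all genes tested, and 1 was at least 2-fold higher (ST6GALNAC2), against 4.4%. With siAkt1-58, 0 were at least 2-fold lower, against 3.58%, and 1 was at least 2-fold higher, against 1.54%. With both siRNAs, 1 was at least 2-fold higher, against 0.736% of all genes, and 0 were at least 2-fold lower, against 1.17%. Since the genes were chosen from this contrast, nothing is read from these shares.

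Direction was uneven between the siRNAs. With siAkt1-22, 6 of the 9 genes lay below siNT, among them all 5 GALNT genes above the filter level, against 35.7% of all genes. With siAkt1-58, 4 of 9 lay below, against 37.0%. The median of the 9 differences was -0.40 with siAkt1-22 and 0.08 with siAkt1-58, and the median over all genes tested was 0 with either siRNA. Both differences use the same siNT library. Genes with equal values count as not below in the shares of all genes, which lowers them, and the 9 genes had no such ties. As the genes were chosen from this contrast, nothing is read from these shares either.

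Signs were opposite with the siRNAs in 4 of the 9 genes (GALNT1, GALNT2, GALNT7 and ST3GAL1), against 25.6% of all genes tested. Ties count as not opposite in that share. Compared directly, siAkt1-22 was at least 2-fold below siAkt1-58 in 2 of 9 (GALNT1 and GALNT2), against 5.28%, and at least 2-fold above it in 0, against 5.0%. With the probe sets of a gene averaged the count was again 2, but the genes were GALNT1 and GALNT7, since GALNT7 then stood 2.21-fold below siAkt1-58 and GALNT2 1.64-fold.

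**Figure D2:**
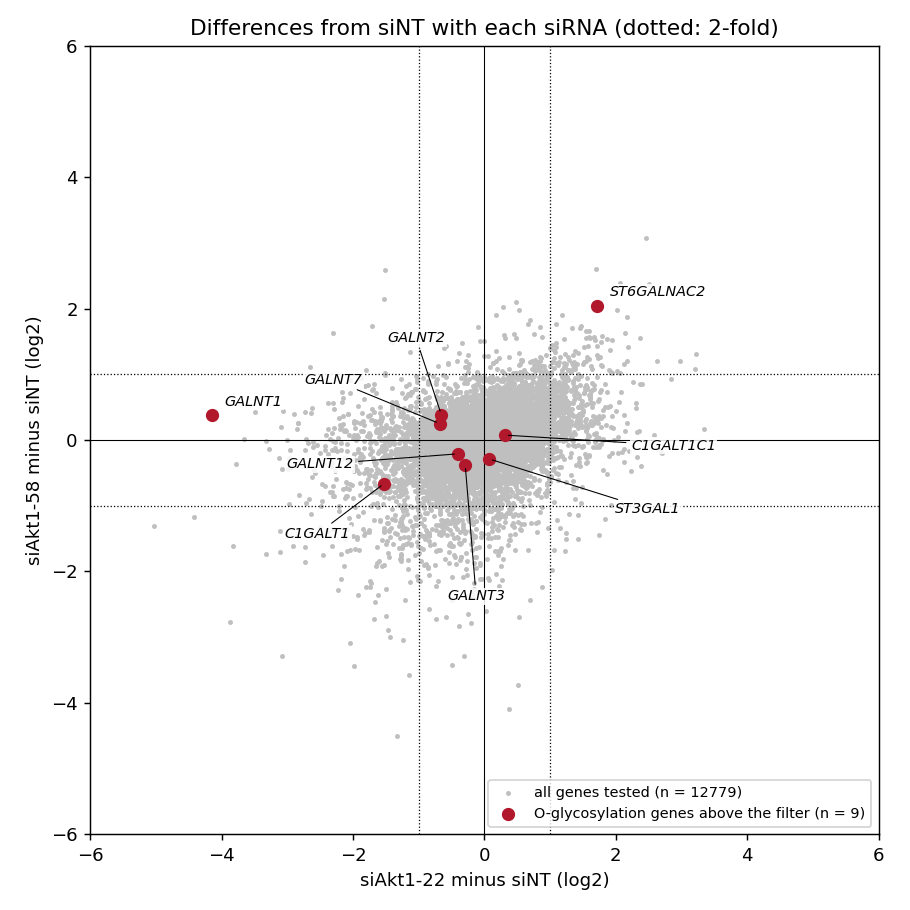
Difference from siNT (log2) with siAkt1-22 (x axis) and with siAkt1-58 (y axis) for 12779 genes (grey) and the 9 O-glycosylation genes above the filter level (red), 1 library per siRNA; dotted lines mark 2-fold. GALNT1 lies at the far left at -4.15 and 0.39, ST6GALNAC2 at the upper right at 1.71 and 2.05.

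Both siAkt1 libraries were also compared with siNT as 1 group by limma (lmFit and eBayes, two-sided, Benjamini-Hochberg adjustment over 12779 genes). It called 0 genes lower (0.0%) and 0 higher (0.0%), with a lowest adjusted p = 0.607, whereas an unadjusted p under 0.05 was found for 954. The fit takes the lone siNT library to vary like the siAkt1 libraries. The spread behind its p-values comes from the siAkt1 libraries alone, which differ in siRNA sequence, and it may be technical in part. With 1 residual degree of freedom, a count of 0 is no evidence of unchanged levels, and no p is given for the 10 genes.

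Genes whose pair of differences lay nearest to that of GALNT1 were sought among the genes tested, by the straight-line distance between the pairs of log2 differences. C12orf75 was nearest, at a distance of 0.62, with differences of -3.65 and 0.02. PRKACA, a catalytic protein kinase A subunit, followed at 0.66 (-3.49 and 0.43), and the peptidyl-prolyl isomerase PPIL1 at 0.84 (-3.79 and -0.37). AIDA at 0.92 (-3.33 and -0.02) and the lysophosphatidic acid receptor LPAR1 at 1.02 (-3.28 and -0.14) completed the 5. For LPAR1 the 3 other probe sets differed less, by -1.65, -1.15 and -2.49 with siAkt1-22. For PPIL1 the other probe sets gave -2.52 and -3.38 with siAkt1-22, and the remaining PRKACA probe sets were dim, at 3.66 or less with siNT.

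The same search for ST6GALNAC2 gave the myosin light chain MYL12B at a distance of 0.04, with differences of 1.75 and 2.04. The mitochondrial pyrophosphatase PPA2 lay at 0.31 (2.01 and 1.98), the kinesin subunit KIF3A at 0.40 (1.46 and 1.73), the guanine nucleotide exchange factor VAV3 at 0.41 (1.59 and 1.66) and the vesicular transporter SLC18B1 at 0.42 (1.54 and 1.66). All 3 KIF3A probe sets were higher, the others by 1.34 and 1.21, and by 1.01 and 1.09. A VAV3 probe set of similar signal gave 0.01 and 0.21. For PPA2, a probe set of 5.24 with siNT gave -0.01 and 0.06 and one of 4.84 gave 0 with each, 4 others of 3.91 to 6.19 with siNT were higher by 1.27 or more, and the rest lay below the filter level. With 2 differences per gene, such likeness is a description of these libraries.

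Other genes of O-glycosylation and neighbouring pathways were taken as 8 lists, of whose 96 measured genes 74 reached the filter level. With siAkt1-22, 5 of these 74 (6.76%) were at least 2-fold lower and 1 (1.35%) at least 2-fold higher, beside 5.97% and 4.4% of all genes. With siAkt1-58, 2 (2.70%) were lower and 0 higher, beside 3.58% and 1.54%. The median over the 74 genes was 0 with either siRNA.

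The other GALNT genes showed no 2-fold difference: 8 of 14 reached the filter level, with medians of -0.16 with siAkt1-22 and -0.04 with siAkt1-58 and a range from -0.89 to 0.30 with siAkt1-22. The lowest was GALNT4 at -0.89 and -0.18, followed by GALNT10 at -0.78 and -0.07 and GALNT14 at -0.55 and -0.30. The highest was GALNT18, at 0.30 and -0.34.

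Among enzymes that branch and extend the core, B3GNT2, the main synthase of poly-N-acetyllactosamine chains, was lower with both siRNAs. It read 7.02 with siNT, 5.76 with siAkt1-22 and 5.77 with siAkt1-58, differences of -1.27 and -1.25, and its dimmer probe set gave -0.80 with each. It was 1 of 6 genes of that list above the filter level. The galactosyltransferase B4GALT1 stood at -0.91 and 0.10. The other O-glycan sialyltransferases, 7 above the filter level, had 0 genes past 2-fold, with medians of 0 and 0.17 and values from -0.13 to 0.66 with siAkt1-22.

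Enzymes and transporters that supply the sugar donors, 9 above the filter level, likewise had 0 genes past 2-fold in their brightest probe sets, with medians of -0.04 and -0.15. SLC35A3, a Golgi transporter of UDP-N-acetylglucosamine, was the lowest with siAkt1-58 at -0.81 and stood at -0.09 with siAkt1-22.

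Of the proteins that carry mucin-type chains, 20 were measured and 11 reached the filter level. CD24, a small mucin-like surface protein, read 8.34 with siNT, 5.86 with siAkt1-22 and 7.35 with siAkt1-58, 5.59-fold lower than siNT with siAkt1-22 and just short of 2-fold lower with siAkt1-58. The sialomucin PODXL read 7.10, 6.02 and 7.04, with differences of -1.07 and -0.05, and -1.37 and 0 in its second probe set. CD44, the hyaluronan receptor, was -0.09 with siAkt1-22 and 0.61 with siAkt1-58, and all 10 of its probe sets were higher with siAkt1-58. The complement regulator CD55 was 0.33 and -0.08. The list's median was 0 with either siRNA, and ties enter it. Of the mucins themselves, MUC1 was the brightest, at 5.88 with siNT, 5.92 with siAkt1-22 and 5.88 with siAkt1-58. MUC5B and MUC20 were dim, with equal values in all 3 libraries of 4.43 and 3.99. MUC4 and MUC16 lay below the filter level, and MUC5AC was not measured.

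Lists outside the mucin-type pathway were set beside these. Of 14 N-glycosylation genes above the filter level, 2 were at least 2-fold lower with siAkt1-22 and 0 with siAkt1-58, with medians of 0.01 and -0.10. RPN2, a subunit of the oligosaccharyltransferase, read 10.44 with siNT, 7.71 with siAkt1-22 and 10.45 with siAkt1-58. The second RPN2 probe set was dim, with 4.14 throughout. The Golgi mannosidase MAN2A1 read 6.54, 4.16 and 6.33 in its only probe set. Like GALNT1, both were low in the siAkt1-22 library and close to siNT with siAkt1-58.

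Among 9 genes of other kinds of protein O-glycosylation, the O-mannosyltransferase POMT1 was higher by 1.37 with siAkt1-22 and 0.68 with siAkt1-58 in its brightest probe set, and 3 of its 5 other probe sets above the filter level were higher with both siRNAs, by at most 0.85 and 0.63. The remaining POMT1 probe sets above the filter level gave 0 and -0.01, and -0.03 and 0.10. Of 10 Golgi structure genes, GOLM1 was lower with siAkt1-58, at 0.55 with siAkt1-22 and -1.28 with siAkt1-58, and 0 passed 2-fold with siAkt1-22. The medians of this list were 0.12 and 0.23.

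**Figure D3:**
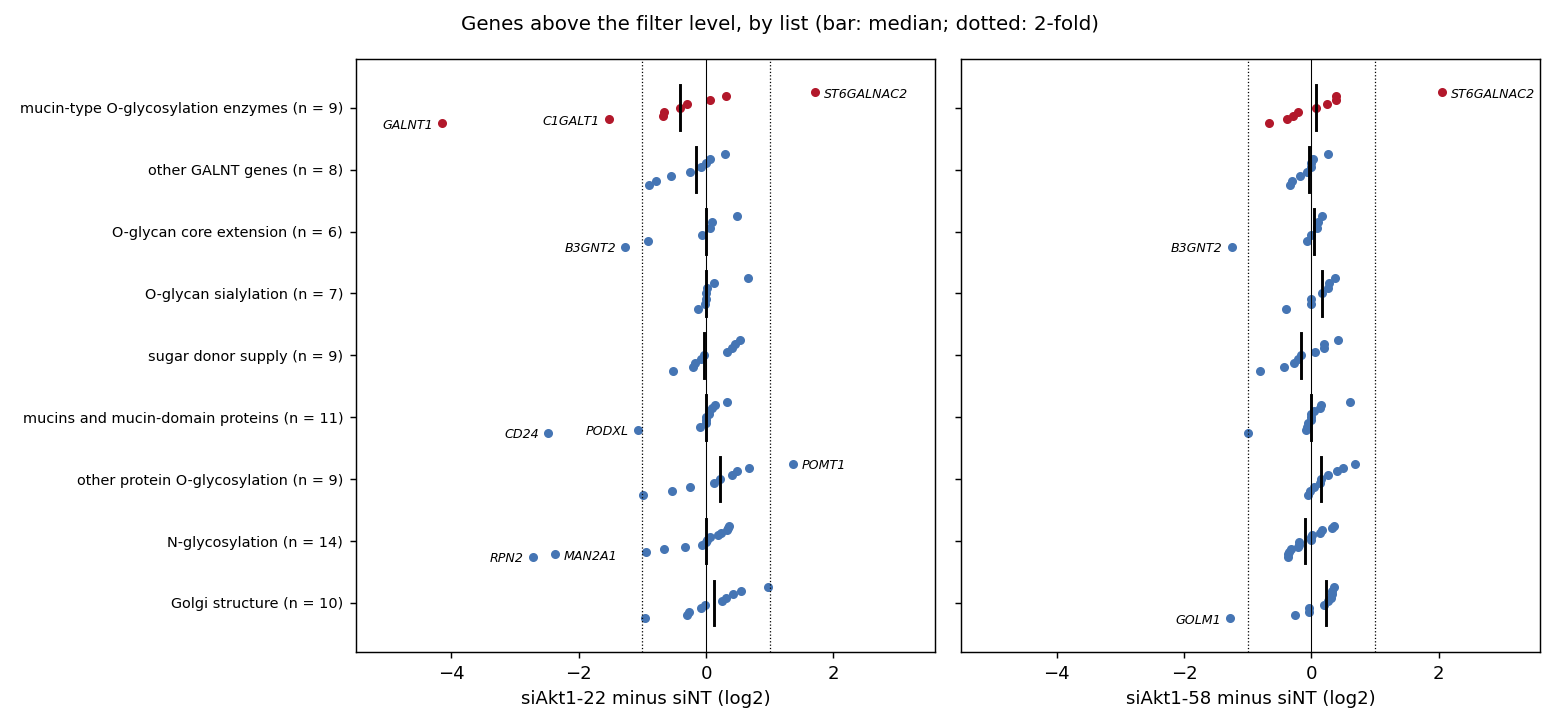
Difference from siNT (log2, x axis) with siAkt1-22 (left) and siAkt1-58 (right) for genes above the filter level, by list (y axis); each point is a gene, bars are medians, dotted lines mark 2-fold, and genes past 2-fold are named. The list medians lie between -0.40 and 0.23, while single genes such as GALNT1, RPN2 and CD24 reach far below siNT with siAkt1-22.

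The sequence before the transcription start is shown for GALNT1 and C1GALT1, the genes that were at least 2-fold lower with siAkt1-22. Windows of 250 bases from RefSeq (GRCh38.p14), plus strand, were read at chr18:35580672-35580921, before the most upstream of 3 listed GALNT1 starts, and at chr7:7182294-7182543 for C1GALT1. Capitals mark the GC box, GGGCGG or its reverse complement CCGCCC, overlaps included.
GALNT1: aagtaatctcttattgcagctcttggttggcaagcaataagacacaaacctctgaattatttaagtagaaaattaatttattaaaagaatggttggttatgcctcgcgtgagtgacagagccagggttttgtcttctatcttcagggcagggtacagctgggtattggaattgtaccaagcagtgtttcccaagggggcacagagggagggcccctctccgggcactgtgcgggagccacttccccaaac
C1GALT1: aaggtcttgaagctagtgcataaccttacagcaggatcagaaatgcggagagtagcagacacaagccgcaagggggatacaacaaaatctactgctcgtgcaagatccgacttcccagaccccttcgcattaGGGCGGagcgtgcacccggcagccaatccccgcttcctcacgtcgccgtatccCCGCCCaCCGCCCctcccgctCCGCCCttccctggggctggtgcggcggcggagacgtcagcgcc
The GALNT1 window held 0 GC boxes, 4 CpG and 47.2% G and C, whereas those before its other starts held 1 and 5 GC boxes. The C1GALT1 window held 4 GC boxes, 21 CpG and 62.4% G and C. Over the windows of genes at large the medians were 11 CpG and 58% G and C. Windows were used for 7 of the 10 genes, 9 in all, and 3 of these 9 were those of GALNT1. Windows of GALNT6, ST3GAL1 and ST6GALNAC2 were left out, so the counts do not cover all 10 genes and could differ with them. The 35116 windows of genes at large were all windows, not cut to match. A GC box was in 8 of the 9, against 42.6% of 35116 windows of genes at large. These shares were not compared by a test, and the windows were not matched for base composition. The letters GTAAACA or the reverse complement TGTTTAC, a core motif of the FOXO factors that AKT phosphorylates, were in 0 of the 9 windows and in 2.98% of all. Such matches describe letters and are neither sites nor causes.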

How the data were processed

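For each of 3 libraries, 10 ng of total RNA was amplified and labelled by a 3′ transcription assay for Affymetrix arrays, per the labels' protocols. The authors deposited log2 expression values for probe sets. The submitters' processing notes list RMA, which corrects background, equalises arrays and summarises probes; version and settings: not given in the sources used here. The log2 scale was inferred from a range of 2.20 to 13.4 and medians of 4.59, 4.59 and 4.58. Precision is limited by having 3 arrays.

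Of 49386 probe sets, 93 were controls, 45253 carried 1 gene, 1327 several, and 2713 had no annotation entry; Entrez identifiers gave the current symbol of 45172. The brightest probe set (highest mean) stood for its gene, and 12779 of 18239 genes at or above the 30th percentile were tested. A 2-fold size rule was used, without a test, and limma 3.58.1 (R 4.3.3) compared both siAkt1 libraries with siNT. Simulated data served to check the estimated differences and the size rule, not whether limma calls changed genes. Named genes were all 10 members, list genes past 2-fold (up to 4 per list), the 4 brightest mucin-domain genes and the 5 nearest genes; other list genes and probe sets in the text were picked with their values in view. The members and lists were chosen with earlier results of these data known. Python 3.11.15 was used. Alternatives were averaged probe sets, median centring, quantile normalization, loess, no filter or a 50th percentile filter, 1.5-fold, probe sets as the unit, trended eBayes, and each siAkt1 library left out.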

Additional observations from a re-analysis of the deposited data

How the results depend on the processing

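All 18 differences from siNT of the 9 O-glycosylation genes above the filter level kept their direction under averaged probe sets, median centring, quantile normalization and loess correction; C1GALT1 and ST6GALNAC2 have 1 probe set each, so averaging could not change them. Averaging moved sizes: GALNT1 with siAkt1-22 went from -4.15 to -3.19, GALNT2 with siAkt1-58 from 0.39 to 0.10, GALNT3 from -0.29 and -0.38 to -0.13 and -0.26, GALNT12 from -0.40 and -0.21 to -0.20 and -0.10, and ST3GAL1 from 0.06 and -0.28 to 0.23 and -0.08. It also replaced GALNT2 by GALNT7 as a gene that stood 2-fold apart between the siAkt1 libraries. Further, limma called 0 genes under every setting run, with 485 to 1803 genes at an unadjusted p under 0.05 and a lowest adjusted p = 0.257 to 0.856. No paired analysis was possible because the control is 1 library and the labels give no replicate numbers. SDs rest on 2 libraries that differ in siRNA sequence.

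The count of O-glycosylation enzymes at least 2-fold lower with siAkt1-22, 2 as reported, was 1 with the 50th percentile filter, since C1GALT1 is dim. With probe sets as the unit, 6 of the 24 above the filter level passed that limit. GALNT1 gave 4 of these, and the rest were of GALNT7 and C1GALT1. At 1.5-fold the count of enzymes was 4, with 1 lower with siAkt1-58 and 1 lower with both. In 4 enzymes siAkt1-22 then lay below siAkt1-58. Counted by probe set at the 2-fold limit, siAkt1-22 lay below siAkt1-58 in 8, all of them of GALNT1, GALNT2 or GALNT7. Leaving out siAkt1-22 or siAkt1-58 gave 0 to 2 lower and 1 higher in either case. Such a count is that of the remaining library alone, already reported, and is no separate check.

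For the 8 lists, averaged probe sets gave 0 higher with siAkt1-22, loess 2 lower with both, and 1.5-fold 12 lower and 4 higher with siAkt1-22, 4 and 2 with siAkt1-58, and 2 and 1 with both. Probe sets as the unit gave 8 lower and 2 higher with siAkt1-22, 5 lower with siAkt1-58 and 2 lower with both. With 1 siAkt1 library left out, 2 to 5 were lower and 0 to 1 higher, again the counts of the remaining library alone.

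Over all genes, averaged probe sets gave 370 higher with siAkt1-22, 81 higher with siAkt1-58, and 99 lower and 43 higher with both. The 1.5-fold limit gave 1536 lower and 1574 higher with siAkt1-22, 1117 and 841 with siAkt1-58, and 458 and 409 with both. Probe sets as the unit gave 1884 and 1116, 1020 and 412, and 352 and 179. With 1 siAkt1 library left out, 457 to 763 were lower and 197 to 562 higher, again the counts of the remaining library alone. The causes were not tested.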

Other observations

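Probe sets of a gene also disagreed in GFPT1, SLC35A3 and TGOLN2, chosen after their values were seen. GFPT1, the enzyme that commits glucose to hexosamine synthesis, was 0.46 with siAkt1-22 and 0.06 with siAkt1-58 in its brightest probe set, and -1.26 and -1.94, and -0.55 and -1.38, in others of 7.65 and 6.56 with siNT. The second SLC35A3 probe set was -0.86 and -1.69. TGOLN2, a protein of the trans-Golgi network, was 0.25 and -0.26 in its brightest probe set and 1.26 and 0.85 in another. The counts by gene hold none of these lower or higher values, because the brightest probe set stood for each gene.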
